A study of Mus musculus with 8 samples.

Results

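The cytosolic sulfotransferases are described here through 10 genes of the family, Sult1a1, Sult1b1, Sult1c2, Sult1d1, Sult1e1, Sult2a1, Sult2a2, Sult2b1, Sult3a1 and Sult5a1, out of 19348 genes measured by RNA-seq. They were taken by their gene symbols, and all 10 were present. The family was chosen by measured values, the liver counts, in which Sult2a2 had a wide difference between genotypes. The liver genotype values below are therefore a description. Where calls among them are counted, nothing is read from the count. Liver and epididymal white adipose tissue (eWAT) came from male C57BL/6 mice aged 12 weeks, fed a normal diet and fasted for 16 h before sampling, and there were 8 libraries in 4 groups of 2: liver of Crtc1+/+ mice, liver of Crtc1-/- mice, eWAT of Crtc1+/+ mice and eWAT of Crtc1-/- mice. The knockout was made with CRISPR/Cas9 guides to exons 2 and 4 of Crtc1, affects every tissue, and was compared with littermates. The labels do not state whether liver and eWAT carrying the same number came from 1 mouse.

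Cytosolic sulfotransferases move a sulfonate group from the donor PAPS onto small molecules such as steroids, bile acids, thyroid hormone, catecholamines, phenols and drugs. The product is more soluble in water, is often inactive at its receptor and is more easily excreted, and liver is a main site of the reaction. In mice the hydroxysteroid enzymes of the Sult2a group are known for being higher in female than in male liver, and several family members respond to nuclear receptors.

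Libraries held 16560070 to 19721464 counts, so that 3 counts, taken here as the floor, equal 0.152 to 0.181 CPM, the counts of a gene scaled to a common library total. In CPM, Crtc1 was higher in both livers labelled Crtc1-/-, at 22.1 and 18.0 against 11.7 and 9.86. In eWAT the groups overlapped, at 58.5 and 33.6 CPM in Crtc1-/- mice against 32.6 and 33.7. By deposited counts eWAT Crtc1-/- replicate 2 was lower, with 484 against 676 and 650. A count over the whole gene does not report on the deleted part, so it does not check the genotype labels. The 4 Y-linked genes looked up were above 0 in all 8 libraries. The marker lists stood apart between the eWAT groups. The summed level of 23 epididymis markers was 86678 and 102309 CPM in eWAT of Crtc1+/+ mice against 48.4 and 19.2 CPM in eWAT of Crtc1-/- mice, and that of 16 adipocyte markers was 2621 and 4248 CPM against 50713 and 29889 CPM. The 15 hepatocyte markers summed to 226118 to 250443 CPM in liver, and in eWAT to 6838 and 1351 CPM in Crtc1+/+ mice and to 3901 and 146652 CPM in Crtc1-/- mice. The library of eWAT Crtc1-/- replicate 2 therefore stood apart, and the eWAT results that it changed are given with that library and without it. In replicate 1 of that group 1 marker, Trf, held most of the sum.

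Sult2a1 and Sult2a2 lie side by side on mouse chromosome 7 (GRCm38), Sult2a2 at chr7:13733505-13779636 on the plus strand and Sult2a1 at chr7:13796246-13837409 on the minus strand. Both belong to the hydroxysteroid group, which sulfonates dehydroepiandrosterone and bile acids. Their coding sequences matched at 573 of 585 aligned bases, or 97.9%, with 12 differences, and the longest identical run was 151 bases. The annotated Sult2a2 model is the shorter, with 585 coding bases in 4 exons against 858 in 6 exons, and its alignment lacks 273 bases of Sult2a1, at coding positions 472 to 744, which fall in exons 3, 4 and 5. A stretch of exon 2, at coding positions 140 to 259, is shown for both because a short read from it names its gene only if it covers one of the 5 differing bases, which are in capitals. It lies at chr7:13836047-13836166 on the minus strand in Sult2a1 and at chr7:13734750-13734869 on the plus strand in Sult2a2 (GRCm38).
Sult2a1: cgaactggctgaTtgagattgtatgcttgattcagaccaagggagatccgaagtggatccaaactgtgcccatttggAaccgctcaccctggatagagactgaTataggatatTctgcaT
Sult2a2: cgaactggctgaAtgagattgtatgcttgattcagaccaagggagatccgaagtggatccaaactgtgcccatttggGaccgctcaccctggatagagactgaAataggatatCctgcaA

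Of all stretches of 50 bases in the Sult2a2 transcript, 62.1% occurred in the transcript of another Sult gene and 41.3% in that of Sult2a1. For Sult2a1 the share was 33.2%, for Sult3a1 6.15%, all in its neighbour Sult3a2, and for Sult1c2 0.723%. The other 6 genes shared none. At 100 bases the shares were 34.6% for Sult2a2 and 11.4% for Sult2a1. How the counting tool divided shared reads is not given in the sources used here, so the split between Sult2a1 and Sult2a2 is uncertain and their sum is printed where it matters. That sum does not remove the sharing with Sult2a5.

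Levels of different genes can be set side by side only per length, so the deposited FPKM (fragments per kilobase, scaled by library total) is used for the order. In a bulk sample, fewer cells of a type and less RNA per cell cannot be told apart, which applies to every level below. Sult1a1, the main phenol sulfotransferase, had the highest mean FPKM of the 10 genes in all 4 groups. Its libraries read 295.66 and 387.12 FPKM in liver of Crtc1+/+ mice, 389.68 and 429.67 in liver of Crtc1-/- mice, 63.77 and 56.60 in eWAT of Crtc1+/+ mice and 377.44 and 417.62 in eWAT of Crtc1-/- mice. Only the eWAT libraries of Crtc1+/+ mice were low, and the other 6 lay between 295.66 and 429.67 FPKM. In liver of Crtc1+/+ mice the order after Sult1a1 was Sult1d1, Sult1b1, Sult5a1, Sult2a2, Sult1c2, Sult2a1, Sult3a1, Sult1e1 and Sult2b1, and 5 genes had a mean above 1 FPKM. Sult1a1 stood clear of the next gene. From Sult1d1 to Sult1c2 each gene overlapped its neighbour in the order, and Sult1c2 stood clear of Sult2a1. In liver of Crtc1-/- mice Sult2a2 and Sult2a1 came next after Sult1a1, and 9 genes had a mean above 1 FPKM. There Sult2a2 reached 411.55 FPKM in replicate 2, within the range of Sult1a1, and 147.78 FPKM in replicate 1. Sult2a1 read 356.03 and 21.53 FPKM in the same libraries. Sult1a1, Sult2a2, Sult2a1 and Sult1d1 each overlapped the next in this order, whereas Sult1d1 stood clear of Sult1b1.

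In eWAT of Crtc1+/+ mice the order was Sult1a1, Sult2b1, Sult5a1, Sult1c2, Sult1e1, Sult2a2, Sult1d1, Sult2a1, Sult1b1 and Sult3a1, and none of the first 5 overlapped another of them. Sult2b1, whose protein sulfonates cholesterol and pregnenolone and is known from epidermis, read 41.74 and 31.22 FPKM there. In eWAT of Crtc1-/- mice Sult1a1 alone stood clear, and each of the other 9 genes overlapped its neighbour in the order, because the libraries of that group differed widely from each other. In replicate 2 of that group Sult2a2 read 92.24 FPKM and Sult2a1 87.37 FPKM, and in replicate 1 they read 1.18 and 0.25 FPKM.

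**Figure D1:**
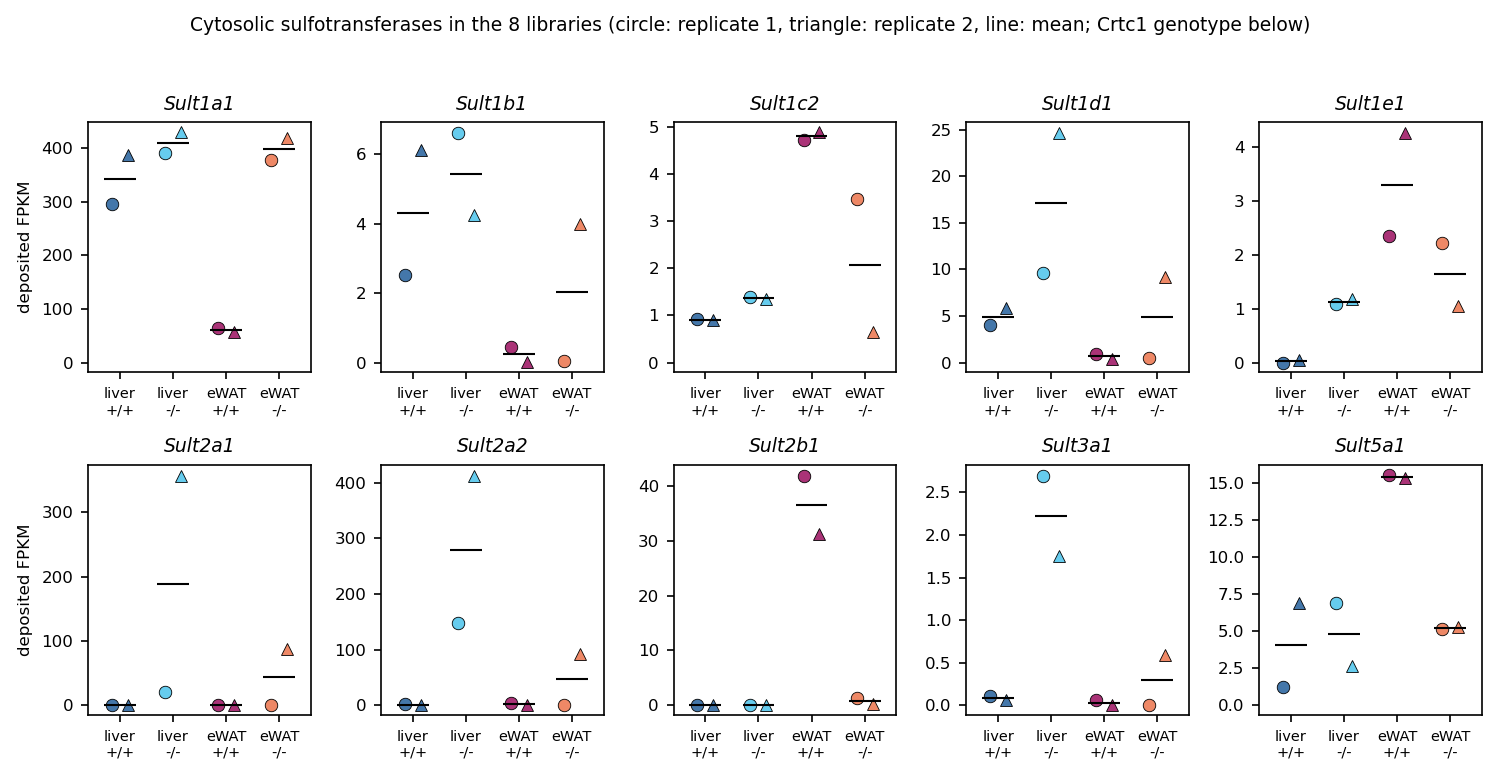
Deposited FPKM of the 10 sulfotransferase genes in the 8 libraries, a panel a gene with its own linear axis; the points are single libraries (circle replicate 1, triangle replicate 2) and the line is the mean of each group of 2. Sult1a1 was low only in eWAT of Crtc1+/+ mice, at 63.77 and 56.60 FPKM, Sult2b1 was high only there, at 41.74 and 31.22 FPKM, and Sult2a1 and Sult2a2 were high in liver of Crtc1-/- mice and in 1 of the 2 eWAT libraries of Crtc1-/- mice.

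The genotype comparison in eWAT asked which sulfotransferases differed between Crtc1-/- and Crtc1+/+ mice in the fat depot, and it was tested. Of the 9 genes that passed the expression filter, Sult1a1 rose and Sult2b1 fell. These are 2 of 9, beside 12.2% of the 15391 genes tested in eWAT that passed an adjusted p of 0.05, or 6.65% higher and 5.54% lower. The 2 groups did not overlap for 4 of the 9, of which Sult1a1 was higher and Sult2b1, Sult5a1 and Sult1c2 were lower, beside 66.6% of all genes tested, 31.3% higher and 35.4% lower. Both shares are given for reading the counts, and 66.6% of genes with separate groups means that separate groups alone say little here. The values below are CPM scaled between libraries of the same tissue.

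Sult1a1 had 59.8 and 57.1 CPM in eWAT of Crtc1+/+ mice and 416 and 541 CPM in eWAT of Crtc1-/- mice. Both libraries of each group lay close together, and the groups were far apart. The log2 fold change was 3.03 ± 0.34 (SE, n = 2 against 2; edgeR quasi-likelihood test with Benjamini-Hochberg adjustment, adjusted p = 0.0178). It was 2.80 to 3.22 when each library was left out in turn. Without eWAT Crtc1+/+ replicate 1 or replicate 2 the same test gave adjusted p = 0.156 and 0.254, and in those fits no gene of the whole table passed. Adipocyte markers were higher in the same libraries, as given above, with all 16 above 0 on the log2 scale and 12 of them called; their part in the Sult1a1 result was not tested. Without eWAT Crtc1-/- replicate 2, the library rich in hepatocyte markers, the log2 fold change of Sult1a1 was 2.80 and Sult1a1 stayed called by edgeR's quasi-likelihood test at adjusted p = 0.00739.

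Sult2b1 had 36.4 and 28.0 CPM in eWAT of Crtc1+/+ mice against 1.21 and 0.208 CPM in eWAT of Crtc1-/- mice, which are 756 and 540 counts against 22 and 3. The groups did not overlap and lay far apart. The log2 fold change was -5.46 ± 0.87 (edgeR quasi-likelihood test with Benjamini-Hochberg adjustment, adjusted p = 0.0275). Without eWAT Crtc1+/+ replicate 1 or 2 the adjusted p was 0.16 and 0.252 in the same edgeR test, and without Crtc1-/- replicate 2 the log2 fold change was -4.75 and the call was kept (adjusted p = 0.00988). Epididymis markers moved in the same direction, all 23 with a log2 fold change below 0 and 21 called lower. Of 9 epithelial markers tested, 8 lay below 0 and 1 above, and 4 were called lower. Epcam, at 300 and 393 CPM against 20.6 and 0.417 CPM, was not called (edgeR quasi-likelihood test, adjusted p = 0.113). Krt18 and Krt8, at -2.03 and -1.63 on the log2 scale, were not called either (same edgeR test, adjusted p = 0.1 and 0.0748). The 11 epithelial markers summed to 1823 and 1791 CPM against 219 and 461 CPM. The part of these cells in the Sult2b1 result was not tested. In liver, where epididymis markers summed to 2.47 to 100 CPM, Sult2b1 had 0 and 0 counts in Crtc1+/+ mice and 2 and 1 counts in Crtc1-/- mice.

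**Figure D2:**
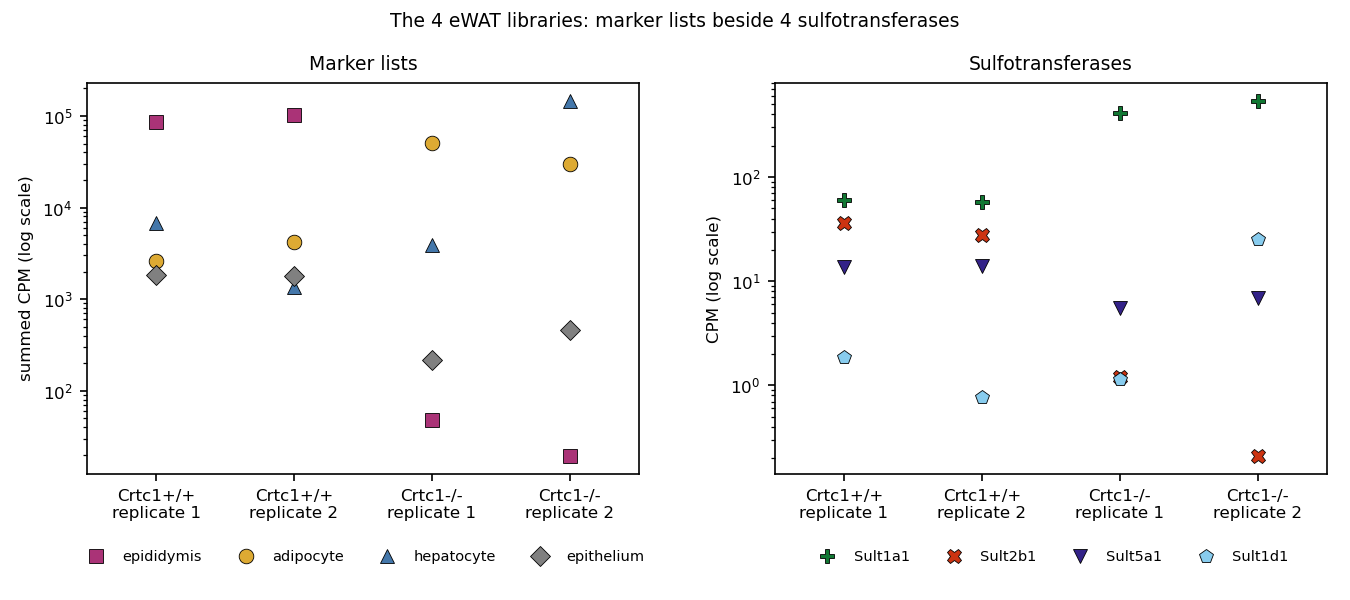
Left, summed CPM of 4 marker lists in each eWAT library, and right, CPM of 4 sulfotransferases in the same libraries, both on log axes with 1 point a library. Epididymis markers and Sult2b1 were high in the Crtc1+/+ libraries, adipocyte markers and Sult1a1 in the Crtc1-/- libraries, and hepatocyte markers and Sult1d1 in Crtc1-/- replicate 2 alone, at 146652 summed CPM and 25.5 CPM.

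Sult5a1 had 13.7 and 14.0 CPM in eWAT of Crtc1+/+ mice and 5.55 and 6.87 CPM in eWAT of Crtc1-/- mice. Although both Crtc1-/- libraries were lower, the difference did not pass the test (log2 fold change -1.16 ± 0.40, adjusted p = 0.12, edgeR quasi-likelihood test with Benjamini-Hochberg adjustment). DESeq2, which called 30% of all genes tested, called it at adjusted p = 0.0417. Sult1c2 had 5.49 and 5.86 CPM against 4.67 and 1.04 CPM, and its difference of -0.98 ± 0.83 on the log2 scale did not pass either (edgeR, adjusted p = 0.435). Without Crtc1-/- replicate 2, which had 15 counts, it was -0.31, and without replicate 1 it was -2.43. Sult1e1, the estrogen sulfotransferase, had 2.31 and 4.30 CPM against 2.53 and 1.46 CPM, and the groups overlapped (log2 fold change -0.73, or -0.44 without Crtc1-/- replicate 2).

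The remaining genes were high in 1 Crtc1-/- library only. Sult2a1 had 0.674 and 0 CPM in eWAT of Crtc1+/+ mice and 0.220 and 95.0 CPM in eWAT of Crtc1-/- mice. Sult2a2 had 2.60 and 0 CPM against 0.715 and 68.7 CPM. Sult1d1, which acts on catecholamines, had 1.88 and 0.778 CPM against 1.15 and 25.5 CPM. In all of these, replicate 1 of the Crtc1-/- group lay inside the range of the Crtc1+/+ libraries and replicate 2 lay far above it. Sult1b1, which sulfonates thyroid hormones and phenols, showed the same order, with 0.530 and 0.0519 CPM against 0.110 and 6.32 CPM. The adjusted p in the edgeR quasi-likelihood test was 0.164 for Sult2a1, 0.245 for Sult2a2, 0.191 for Sult1d1 and 0.269 for Sult1b1. DESeq2, which called 30% of all genes tested, called Sult1d1 of these, at adjusted p = 0.0438. Without Crtc1-/- replicate 2 the log2 fold changes of Sult1d1, Sult2a1 and Sult2a2 were -0.21, -0.59 and -0.83. Without Crtc1-/- replicate 1 they were 4.27, 8.09 and 5.72. The sum of Sult2a1 and Sult2a2 was 3.28 and 0 CPM in eWAT of Crtc1+/+ mice and 0.934 and 164 CPM in eWAT of Crtc1-/- mice, the same pattern with no division of reads between the pair. Sult3a1, known for sulfonating amines, had too few counts for the test, 10 in the Crtc1-/- libraries together against 1, a ratio of 12.3 (95% interval from counting error 1.75 to 533), and all 10 were in replicate 2.

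In liver the genotype values are a description, since this contrast chose the family. Of the 9 genes that passed the expression filter, 6 had separate groups, all higher in Crtc1-/- mice, beside 25.8% of the 11707 genes tested in liver that were separate and higher, and 3 overlapped. At an adjusted p of 0.05, 1 of the 9 passed, Sult2a2, beside 0.0854% of all genes tested in liver, and nothing is read from that count. Among the 9, Sult2a1 and Sult2a2 showed the widest differences, whereas all Sult2a genes summed gave a fitted log2 fold change of 3.06. Sult2a1 had 0.359 and 0.0525 CPM in liver of Crtc1+/+ mice and 18.8 and 307 CPM in liver of Crtc1-/- mice. Its fitted log2 fold change was 9.57 ± 1.43 (SE), and 6.45 to 11.4 when each library was left out in turn. Sult2a2 had 1.44 and 0 CPM against 87.4 and 243 CPM, with a log2 fold change of 6.83 to 14.6 over left-out libraries. The 2 Crtc1-/- livers thus differed widely in Sult2a1 and less so in Sult2a2. Together the pair had 1.80 and 0.0525 CPM in Crtc1+/+ mice and 106 and 550 CPM in Crtc1-/- mice.

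The ratio of Sult2a1 to Sult2a2 counts fell into 2 sets of libraries. It was 0.257 in liver Crtc1+/+ replicate 1, 0.214 in liver Crtc1-/- replicate 1, 0.263 in eWAT Crtc1+/+ replicate 1 and 0.308 in eWAT Crtc1-/- replicate 1. It was 1.26 in liver Crtc1-/- replicate 2 and 1.38 in eWAT Crtc1-/- replicate 2. In the other 2 libraries, those of Crtc1+/+ replicate 2, the pair together had 1 count and 0 counts, and no ratio was taken. The low ratio was found at 1668.13 counts of Sult2a2 as well as at 13 counts. These ratios use the counts as the tool divided them and are uncertain for that reason.

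The estrogen sulfotransferase Sult1e1 had 0 and 1 count in liver of Crtc1+/+ mice and 23 and 22 counts in liver of Crtc1-/- mice, or 1.21 and 1.28 CPM, a ratio of 47.9 (95% interval from counting error 8.17 to 1930). Both Crtc1-/- libraries lay close together, at a low level. Sult3a1 had 2 and 1 counts against 44 and 28, a ratio of 25.5 (95% counting interval 8.40 to 127). Sult1d1 had 9.14 and 13.5 CPM against 21.5 and 53.9 CPM, with separate groups and a fitted log2 fold change of 1.74 ± 0.42. That change was 0.92 to 2.26 when each library was left out in turn. Sult1c2 was separate by a small margin, with 1.23 and 1.21 CPM against 1.83 and 1.75 CPM. Sult1a1 overlapped at 325 and 428 CPM against 408 and 432 CPM, and so did Sult1b1 at 3.24 and 7.87 CPM against 8.86 and 5.43 CPM and Sult5a1 at 1.34 and 7.14 CPM against 6.97 and 2.80 CPM. All 9 tested genes had a log2 fold change above 0 in liver, with a median of 1.74 beside 0.004 for all genes. This contrast chose the family, so nothing is read from that tally. The sizes were unlike. The most abundant member, Sult1a1, differed by 0.16 ± 0.26 on the log2 scale, while members at or near the floor in Crtc1+/+ liver held the widest differences.

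**Figure D3:**
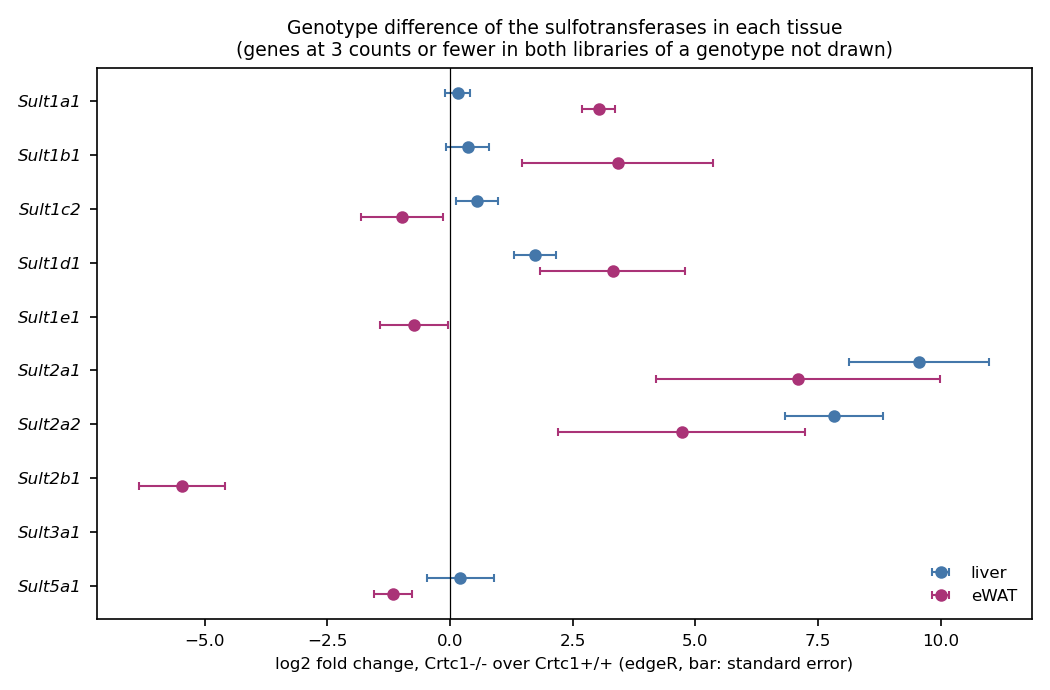
Fitted log2 fold change of Crtc1-/- over Crtc1+/+ for each gene in liver (blue) and in eWAT (purple), from edgeR, with the standard error as a bar; a gene whose libraries of 1 genotype all held at most 3 counts is not drawn. In liver Sult2a1 and Sult2a2 lay at 9.57 and 7.82 and Sult1a1 at 0.16, whereas in eWAT Sult1a1 lay at 3.03 with a short bar and Sult2b1 at -5.46.

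The share of library counts in each eWAT library was also set against that in the liver library of the same genotype and number, as a description with no scaling beyond the library total. In eWAT Crtc1-/- replicate 2 the 15 hepatocyte markers stood at 41.0% to 78.1% of their liver level, with a median of 52.1%. In the same library Sult1a1 stood at 98.7%, Sult1b1 at 91.9%, Sult1e1 at 89.7% and Sult5a1 at 194% of liver, above the marker range, and Sult1c2 at 47.0%, within it. Sult1d1 stood at 37.5%, Sult3a1 at 33.6%, Sult2a1 at 24.5% and Sult2a2 at 22.3%, below that range. In eWAT Crtc1-/- replicate 1 the markers had a median of 0.540% of liver, from 0.470% to 20.5%. There Sult2a2 stood at 0.801%, Sult2a1 at 1.15%, Sult1b1 at 1.22% and Sult1d1 at 5.25%, and Sult3a1 had 0 counts. Sult5a1 stood at 78.1%, Sult1a1 at 99.9%, Sult1e1 at 206% and Sult1c2 at 250%. These are shares of library counts, and in the TMM fit given below Sult1a1 was lower in eWAT than in liver of Crtc1-/- mice, by -1.09 ± 0.36 on the log2 scale. In the eWAT libraries of Crtc1+/+ mice it stood at 21.1% and 15.0% of liver, with marker medians of 3.24% and 0.369%.

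**Figure D4:**
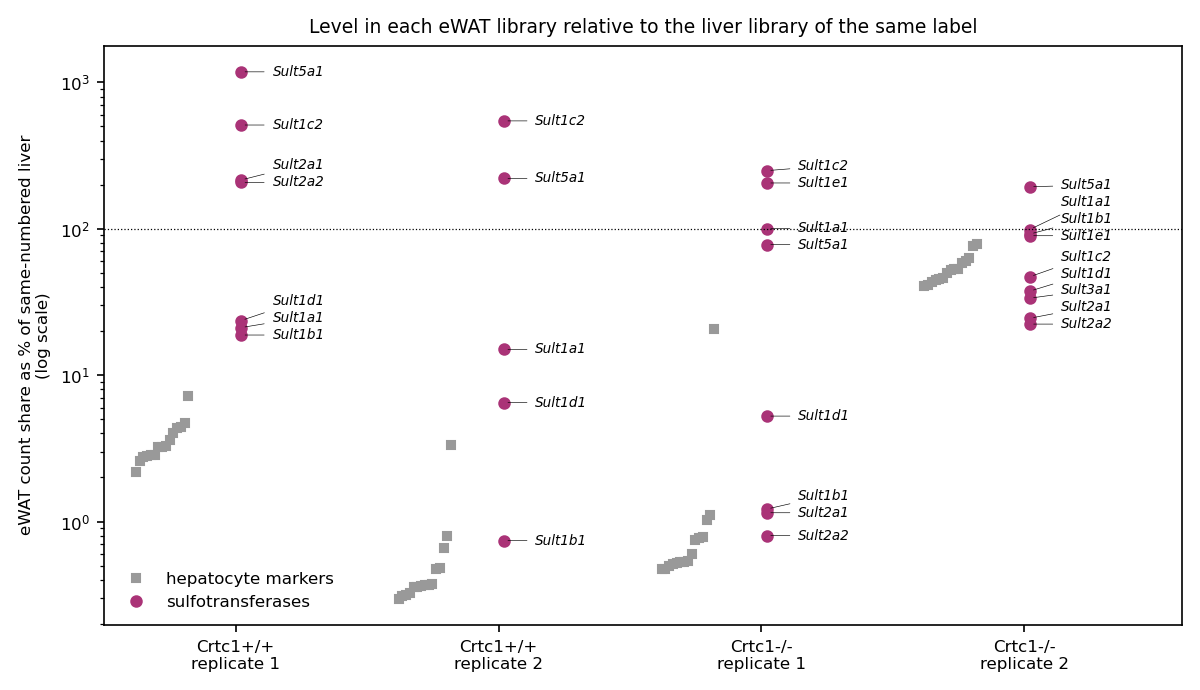
Level in each eWAT library as a percent of the liver library with the same genotype and number, on a log axis, for the 15 hepatocyte markers (grey squares) and for the sulfotransferases with more than 3 counts in that liver library (purple points); the dotted line is 100%, and a gene with no count in an eWAT library is not drawn. In Crtc1-/- replicate 2 the markers lay between 41.0% and 78.1%, with Sult1a1 at 98.7% above them and Sult2a2 at 22.3% below.

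The tissues were compared within each genotype in 1 fit of all 8 libraries, to give the tissue of each gene. In Crtc1+/+ mice 5 of the 10 genes differed between eWAT and liver, 2 higher and 3 lower in eWAT, beside 54.9% of 15587 genes that passed, 35% higher and 19.8% lower. The median of all genes lay at 0.61 on the log2 scale, or 2 with library-size scaling. Sult1a1 was lower in eWAT by a log2 fold change of -3.90 ± 0.40 (edgeR quasi-likelihood test with Benjamini-Hochberg adjustment, adjusted p = 0.000822), and so were Sult1b1 (-5.40 ± 1.67, adjusted p = 0.0307) and Sult1d1 (-4.28 ± 1.35, adjusted p = 0.0323). Sult1b1 and Sult1d1 lost the call when any 1 of the 4 Crtc1+/+ libraries was left out, with adjusted p of 0.0629 to 0.126 and 0.0743 to 0.14. Sult2b1 was higher in eWAT, with 1296 counts against 0, at least 179-fold higher against a floor of 3 counts over the group (adjusted p = 0.00143 in edgeR's quasi-likelihood test). Sult1e1 was higher too, with 131 counts against 1, a ratio of 54.3 (95% counting interval 9.58 to 2160; adjusted p = 0.00476 in the same edgeR test). Epididymis markers are high in the same eWAT libraries, and their part in both was not tested. Sult1c2, Sult5a1, Sult2a1 and Sult2a2 did not pass, and Sult3a1 was at the floor in both tissues. With library-size scaling, under which 75.9% of genes were called, edgeR called Sult1c2 (2.40, adjusted p = 0.0248) and Sult5a1 (1.90, adjusted p = 0.0465) higher in eWAT and did not call Sult1d1 (adjusted p = 0.0541).

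In Crtc1-/- mice none of the 10 genes passed between tissues by edgeR's quasi-likelihood test, beside 27.8% of 15587 genes. At an unadjusted p of 0.05 by the same test, 2 passed, Sult1a1 and Sult3a1, beside 43.4% of all genes, and DESeq2 called 3, Sult1a1, Sult1d1 and Sult3a1, beside 33.4% of all genes in that fit. Sult1a1 was lower in eWAT by -1.09 ± 0.36 on the log2 scale (edgeR, adjusted p = 0.0616), and this fit scales over both tissues, so its value differs from the share of counts given above. With library-size scaling the value for Sult1a1 was -0.01 (edgeR, adjusted p = 0.988). Without eWAT Crtc1-/- replicate 2, 7 of the 10 passed: Sult1a1, Sult1b1, Sult1d1, Sult2a1, Sult2a2 and Sult3a1 lower in eWAT and Sult2b1 higher, beside 36.2% of the 16469 genes in that fit. These values share libraries with the genotype comparisons. The liver values of Crtc1-/- mice took part in choosing the family. The lower eWAT values of Sult2a2, and of Sult2a1 that shares reads with it, are in part fixed by that choice.

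The donor PAPS is made from sulfate by the synthases Papss1 and Papss2, and a list of 22 genes for sulfate supply, of which 19 were measured, was read beside the family. In eWAT 18 were tested, with 9 above and 9 below 0 and a median of 0.10 on the log2 scale beside -0.05 for all genes. Of these 1 rose and 2 fell, 3 of 18 beside the 12.2% of all genes called in eWAT. Papss1 had 127 and 182 CPM in eWAT of Crtc1+/+ mice and 46.0 and 35.6 CPM in eWAT of Crtc1-/- mice (log2 fold change -1.92 ± 0.33, adjusted p = 0.0316 by edgeR's quasi-likelihood test). Papss2 did not pass, at 1.94 ± 0.57 (edgeR, adjusted p = 0.0905). The protein tyrosine sulfotransferases of the Golgi moved in opposite directions, Tpst1 at 2.41 ± 0.29 (edgeR, adjusted p = 0.0193) and Tpst2 at -2.09 ± 0.45 (edgeR, adjusted p = 0.0495). Epididymis, epithelial and adipocyte markers stood apart between the same eWAT groups, as given above. Their part in the results for these genes was not tested. Sqor, which oxidizes hydrogen sulfide, lay at 1.15 ± 0.26 and the sulfate transporter Slc13a4 at 1.83 ± 0.43, and neither passed, with adjusted p of 0.0524 and 0.0562 in the same edgeR test. In liver none of 16 tested passed the edgeR quasi-likelihood test, and 2 were below an unadjusted p of 0.05, beside 17.3% of all genes. The 22 genes hold both supply of the donor and other uses of sulfate, so the count does not speak of PAPS alone.

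Promoter windows from 250 bases before to 50 after the start were held in the RefSeq table (GRCm38.p6) for 8 of the 10 genes, in 10 windows; Sult2a1 and Sult2a2 had no entry. Crtc1 is a coactivator of CREB, whose full site TGACGTCA was in none of the 10 windows and in 1.79% of 32851 promoters. Its shorter form TGACG, which the full site contains, was in 1 window, beside 20.8% of all promoters, on either strand. That window belongs to the inner start of Sult2b1, at chr7:45742429-45742728 on the minus strand, and is shown with its 2 matches in capitals, on opposite strands and beginning 196 and 52 bases before the start.
Sult2b1: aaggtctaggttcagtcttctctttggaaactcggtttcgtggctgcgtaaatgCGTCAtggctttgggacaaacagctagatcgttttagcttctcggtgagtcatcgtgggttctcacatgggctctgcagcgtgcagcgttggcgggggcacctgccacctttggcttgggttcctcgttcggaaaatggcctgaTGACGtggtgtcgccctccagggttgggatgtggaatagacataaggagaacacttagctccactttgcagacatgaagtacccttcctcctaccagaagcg

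The STAT5 palindrome TTCNNNGAA, searched because STAT5 is known for controlling genes that differ between male and female liver, was also in 1 window, beside 8.30% of all promoters. It was 109 bases before the start of Sult3a1, at chr10:33857472-33857771 on the plus strand, and is in capitals below.
Sult3a1: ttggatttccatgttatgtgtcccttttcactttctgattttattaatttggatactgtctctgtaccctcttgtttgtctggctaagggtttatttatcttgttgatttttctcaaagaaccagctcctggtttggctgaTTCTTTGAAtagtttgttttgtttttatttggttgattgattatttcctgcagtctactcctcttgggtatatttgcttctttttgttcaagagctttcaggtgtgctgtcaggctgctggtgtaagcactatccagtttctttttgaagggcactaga
The TATA letters TATAAA were in 1 window, that of Sult1d1, beside 13.6% of promoters. These matches are letters in a window and were not tested against the expression values.

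Several other Sult genes were above 3 counts in a library. Sult2a8 had 33.5 and 63.6 CPM in liver of Crtc1+/+ mice and 96.6 and 66.4 CPM in liver of Crtc1-/- mice, and in eWAT it had 46.3 CPM in Crtc1-/- replicate 2 against 0.363 to 3.85 CPM in the other 3 libraries. Sult2a5, 94.9% identical to Sult2a1 over its coding bases, had 0 counts in both livers of Crtc1+/+ mice and 244 in those of Crtc1-/- mice together, at least 86.5-fold higher against 3 counts over the group. Of its stretches of 50 bases, 34.5% occurred in another Sult gene and 22.2% in Sult2a2. Its counts, and its likeness to Sult2a2 below, are uncertain for that reason. Sult2a7 had 13 and 11 counts in liver of Crtc1+/+ mice and 68 and 10 in liver of Crtc1-/- mice. Sult2a3, Sult4a1 and Sult6b1 had at most 5, 9 and 8 counts in any library. Across the 8 libraries, the genes whose centred log2 CPM profile lay closest to Sult2a2 among 15577 genes were Cyp2b13, Hamp2 and Sult2a5, with root mean square differences of 1.57, 1.71 and 2.22 on the log2 scale. For Sult1a1 they were Helz2, Gstz1 and Nr1h3, at 0.22, 0.25 and 0.28.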

How the data were processed

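RNA of liver and eWAT from 2 Crtc1+/+ and 2 Crtc1-/- mice per tissue was sequenced at BGI. The authors deposited estimated counts per gene, which need not be whole (5.44% to 9.98% of values per library were not), and FPKM for the same 19348 genes. Per the labels' processing notes HISAT, Bowtie2 and GRCm38.p6 were used; how shared reads were divided is not given in the sources used here. Groups and replicate numbers came from the sample labels, and all 8 libraries were used. The study's methods call the replicates independent biological samples.

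Counts were rounded and tested with edgeR 4.0.16 in R 4.3.3: filterByExpr, TMM scaling, the quasi-likelihood test and Benjamini-Hochberg adjustment over all genes tested, called at an adjusted p of 0.05. Genotypes were fitted within each tissue and tissues in 1 fit of 4 groups. CPM values are on the TMM scale of each tissue. A fold against a group at 3 counts or fewer in each library is a ratio of summed counts with an exact 95% counting interval, or a bound against 3 counts. Libraries held 16560070 to 19721464 counts. Intervals and floors cover counting error only, and the spread between 2 mice limits every test. Alternatives were DESeq2 1.42.0, limma 3.58.1 on quantile-normalized log2(FPKM + 1) and log2(FPKM + 0.1), other scalings, no filter, a mean count of at least 50, a replicate block, 1 fit of all libraries, the Sult2a genes summed and each library left out. The sum of Sult2a1 and Sult2a2 alone was chosen after seeing the data. Scripts for the tests were tested on simulated data.

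Coding and transcript sequences came from GENCODE annotation of GRCm38, coordinates being 1-based, and were compared as exact words and by pairwise alignment (biopython 1.88). Promoters came from RefSeq. Plots used matplotlib 3.10.9 and pandas 2.3.3.

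The 10 genes and all lists were chosen with earlier results of these data known. All 10 were named, with other Sult genes above 3 counts in a library, the 5 sulfate supply genes of smallest adjusted p in eWAT, up to 3 marker genes a list, up to 3 genes of highest level and up to 3 of largest liver change from each list of sex-biased liver genes, Crtc1, the Y-linked genes as a check, and the 3 genes of closest profile to Sult2a2 and to the member highest in eWAT, by root mean square difference. Papss2 was named outside this rule after its value was seen. Protein identity was not computed.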

Additional observations from a re-analysis of the deposited data

Results flagged for a closer look

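The values of Sult1c2 lay in opposite directions between the genotypes of the 2 tissues. In eWAT both Crtc1-/- libraries, at 4.67 and 1.04 CPM, lay below both Crtc1+/+ libraries, at 5.49 and 5.86 CPM, and in liver both Crtc1-/- libraries, at 1.83 and 1.75 CPM, lay above both Crtc1+/+ libraries, at 1.23 and 1.21 CPM. The log2 fold change in eWAT minus that in liver was -1.54. The eWAT value of -0.98 did not pass (edgeR's quasi-likelihood test, adjusted p = 0.435) and rested largely on Crtc1-/- replicate 2, with 15 counts: it was -0.31 without that library and -2.43 without replicate 1. The difference between the tissues was not tested, since the liver comparison had chosen the family. The 4 eWAT libraries held 15 to 114 counts of Sult1c2 and the 4 liver libraries 23 to 35.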

How the results depend on the processing

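Shares in parentheses are of all genes in the same fit. Between genotypes in eWAT 2 genes passed (12.2%). DESeq2 called 4 (30%), the replicate block called 0 (0%), and leaving out 1 library gave 0 to 5: 0 without eWAT Crtc1+/+ replicate 1 or 2 (0%), 5 without eWAT Crtc1-/- replicate 1 (19%) and 2 without its replicate 2 (12.3%). A lone library left in a group was assumed to vary like the other group. Without eWAT Crtc1-/- replicate 2, Sult1d1, Sult2a1 and Sult2a2 turned to -0.21, -0.59 and -0.83 on the log2 scale, and their ranges over left-out libraries were -0.21 to 4.27, -0.59 to 12.80 and -0.83 to 12.34. Over all alternatives Sult1a1 lay at 2.61 to 3.22 with adjusted p of 2.23e-17 to 0.254, and Sult2b1 at -7.22 to -4.27 with adjusted p of 3.37e-11 to 0.252 (edgeR, DESeq2 or limma). The median of all genes in eWAT was -0.05, and -0.25 and -0.35 with upper-quartile and library-size scaling.

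The liver comparison chose the family, so nothing is read from the number of family genes past the threshold there. That number was 1 in the main fit (0.0854%), 2 with DESeq2 (2.66%), 5 with no filter (1.89%) and 0 with either limma fit (0%). It was 5 with the replicate block (0.7%), 0 with all 8 libraries in 1 fit (0%) and 0 with the Sult2a genes summed (0.0513%). Between tissues in Crtc1+/+ mice the 5 calls became 3 without any 1 of the Crtc1+/+ libraries (3 to 3; 26% to 36.9%), and the replicate block ended the call of Sult1b1 (edgeR, adjusted p = 0.0693). With library-size scaling Sult2a1 and Sult2a2 turned to 0.90 and 1.05, and with limma Sult1c2 turned to -0.0533 and -0.0829. Over left-out libraries Sult2a1 ran from -5.60 to 1.42, Sult2a2 from -7.38 to 7.22 and Sult5a1 from -0.27 to 2.15. Between tissues in Crtc1-/- mice the 0 calls became 3 with DESeq2 (33.4%), 1 with upper-quartile scaling (28.9%), 1 with each limma fit (25% and 22.5%) and 0 to 7 with 1 library left out, 7 without eWAT Crtc1-/- replicate 2 (36.2%). With library-size scaling Sult1c2, Sult1e1 and Sult5a1 turned to 0.58, 0.53 and 0.16, and Sult2a1 ran from -10.88 to 0.14 over left-out libraries. The share of Sult2a2 found in another Sult gene was 34.6% at 100 bases against 62.1% at 50. The cause of these changes was not tested.

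The labels do not state what samples of the same number share. Their deviations correlated at 0.0356 and 0.152 between tissues and at 0.0516 and 0.0086 between genotypes, over 15587 genes. Such correlations cannot show whether samples came from 1 mouse, so the replicate block results are not read as weaker effects. The summed pair Sult2a1 and Sult2a2, added after seeing the data, gave 5.64 in eWAT (edgeR, adjusted p = 0.219).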

Other observations

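In liver, the lists of genes known to differ between the sexes lay apart in the same libraries as the Sult2a genes. Of 16 tested genes that are higher in female liver, 15 had a log2 fold change above 0 in Crtc1-/- mice, with a median of 1.28 beside 0.004 for all genes, and of 17 tested genes that are higher in male liver, 16 lay below 0, with a median of -1.52. The female list, which does not hold the Sult genes, summed to 555 and 415 CPM in liver of Crtc1+/+ mice and to 925 and 1610 CPM in liver of Crtc1-/- mice. The male list summed to 7168 and 13712 CPM against 2741 and 1369 CPM. Of these sums 1 gene, Serpina1e, held 4591 and 10157 against 1376 and 655 CPM. In both lists Crtc1-/- replicate 2, which also had the higher Sult2a1 and Sult2a2, lay farthest from the Crtc1+/+ libraries. Elovl3, a fatty acid elongase higher in male liver, had 17.5 and 18.8 CPM against 1.62 and 0.292 CPM. The liver comparison chose the family, and these lists were written with its results known.

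In eWAT Crtc1-/- replicate 2, which held hepatocyte markers at 41.0% to 78.1% of liver Crtc1-/- replicate 2, both lists lay outside that range on the same scale, the share of library counts. The male list stood at 221% and the female list at 33.7% of that liver library. On the TMM scale Serpina1e alone held 2247 of the 3829 CPM of the male list in that eWAT library. Mup7, a major urinary protein, had 96.9 CPM by library total in that eWAT library and 1.93 CPM in the liver library, beside 36.4 and 219 CPM in liver of Crtc1+/+ mice on that scale. In eWAT Crtc1+/+ replicate 1, with hepatocyte markers at 2.20% to 7.22% of liver, Sult2a2 had 53.84 counts against 27.84 in the liver library of the same label, or 2.95 against 1.42 CPM by library total. No cause was tested for these values.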
